A study of Mus musculus with 22 samples.

Results

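Mitochondrial ribosomal proteins are encoded by nuclear genes, made on cytosolic ribosomes and imported into mitochondria. There they assemble with mitochondrially encoded ribosomal RNA into a large (Mrpl) and a small (Mrps) subunit. The small subunit decodes the mRNA, the large subunit forms the peptide bonds, and the complete ribosome makes the few hydrophobic subunits of the respiratory chain that mitochondrial DNA still encodes. Cytosolic ribosomal protein mRNAs begin with a pyrimidine run, the TOP motif, through which the kinase complex mTORC1 is known to control their translation. The genes were chosen by symbol, as every gene whose symbol starts with Mrpl or Mrps followed by a number, which gave 70 of the 6054 genes in the count table. Of these, 45 were large and 25 small subunit genes by symbol.

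The libraries came from quadriceps muscle of C57Bl/6 mice that were fasted overnight and given vehicle or leucine by oral gavage 30 minutes before the muscle was harvested. RNA sequencing measured transcript abundance, and ribosome profiling read the footprints, the stretches of mRNA that cytosolic ribosomes shield from nuclease. Each assay had 5 vehicle and 6 leucine libraries. The sources used here give no age, sex or leucine dose, and do not say that the libraries of a group came from separate animals, so the p-values measure the spread between libraries, which may be technical.

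RNA libraries held 15016267 to 30944085 counts and footprint libraries 21697096 to 48996109. Single mitochondrial ribosomal protein genes had between 130 and 5249 counts in a library. Together they took 0.173 to 0.257% of RNA counts and 0.181 to 0.259% of footprint counts. All 12 skeletal muscle markers were measured, with a summed footprint level of 224778 to 271911 CPM (counts scaled to a common library total) in vehicle and 250323 to 361935 in leucine libraries. Whole muscle also held other cells: 8 of 10 endothelial, 10 of 10 fibroblast, 5 of 6 smooth muscle, 4 of 8 macrophage, 1 of 7 adipocyte and 0 of 5 erythroid markers were in the table. None of these markers was called in RNA or footprints, where 0.0% and 0.76% of all genes were called, so the lack of calls does not show equal cell composition. In such bulk samples, fewer cells of a type and less RNA per cell cannot be told apart. The columns fall into 2 sets by a prefix that the sources do not explain, called here set A (3 vehicle and 3 leucine libraries per assay) and set B (2 vehicle and 3 leucine). Libraries are named by set and column order.

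Since the TOP motif lies at the very start of the mRNA, windows from 40 bases before to 20 bases from the annotated start are shown for the mitochondrial ribosomal protein genes with the smallest footprint p, the 6 with an unadjusted p under 0.05 (Mrpl30, Mrpl52, Mrpl43, Mrps24, Mrps35 and Mrps30), where the table holds an entry. The sequences are from RefSeq on GRCm38.p6, read 5′ to 3′ on the gene's strand, and the capitals mark the first 5 transcribed bases.

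Mrpl30 (chr1:37890437-37890496, plus strand): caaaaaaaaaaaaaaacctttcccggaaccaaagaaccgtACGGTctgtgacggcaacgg
Mrpl52 (chr14:54426869-54426928, plus strand): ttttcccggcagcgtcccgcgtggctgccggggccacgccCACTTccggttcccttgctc
Mrpl43 (chr19:45006423-45006482, minus strand): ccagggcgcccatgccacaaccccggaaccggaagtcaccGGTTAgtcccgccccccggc
Mrps24 (chr11:5707682-5707741, minus strand): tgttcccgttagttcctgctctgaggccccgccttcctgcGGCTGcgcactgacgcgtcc
Mrps30 (chr13:118387233-118387292, minus strand): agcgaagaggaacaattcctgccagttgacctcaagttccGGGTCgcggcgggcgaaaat

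For comparison, 3 cytosolic ribosomal protein genes are shown. They have the smallest footprint p among those with a pyrimidine start, leaving aside a chromosome from which no windows were printed. Since that start was required, they illustrate the motif and do not stand for all cytosolic ribosomal protein genes.

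Rps15a (chr7:118116128-118116187, minus strand): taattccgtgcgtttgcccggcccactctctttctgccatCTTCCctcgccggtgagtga
Rpl15 (chr14:18270967-18271026, minus strand): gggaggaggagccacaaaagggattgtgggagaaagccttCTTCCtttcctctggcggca
Rps10 (chr17:27635225-27635284, minus strand): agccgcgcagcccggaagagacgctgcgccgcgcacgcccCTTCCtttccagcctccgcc

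The RefSeq table held starts for 61 of the 70 mitochondrial ribosomal protein genes. A pyrimidine start, meaning a C at base 1 followed by 4 bases that are each C or T, stood at 0 of these 61 starts. It stood at 12 of 56 cytosolic ribosomal protein genes (21.4%) and at 135 of 4534 genes of the count table (2.98%). When the run could begin within 5 bases either side of the annotated start, it was found in 16 of 61 mitochondrial (26.2%), 26 of 56 cytosolic (46.4%) and 1059 of 4534 genes (23.4%). These are descriptions of the annotated letters; real start sites vary from the annotation, and no match says only that the letters are not in the window.

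In vehicle muscle, footprint levels of the 70 genes per length of coding sequence ran from 13.9 to 458 CPM per kb, with a median of 36.1, beside 21.2 over all genes. The median was 39.1 for large and 28.7 for small subunit genes. The highest levels were those of the short genes Mrpl33 (458 CPM per coding kb), Mrps21 (316) and Mrpl51 (285). Mrpl19 (13.9), Mrps9 (16.4) and Mrps26 (16.9) had the lowest. RNA levels per length of transcript ran from 3.10 CPM per kb for Mrpl19 to 183 for Mrpl42, with a median of 20.3 beside 11.4 over all genes. Without division by length the order was reversed. Median vehicle footprints were then 23.3 CPM beside 29.1 over all genes, and median vehicle RNA 25.6 CPM beside 33.9. The highest and the lowest footprint density, in proteins that with few exceptions enter the ribosome as single copies, were 32.9-fold apart. Across the 70 genes the RNA level per kb and the footprint level per coding kb had a Pearson r of 0.66 on the log2 scale, given as a description of genes that share the same libraries.

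**Figure D1:**
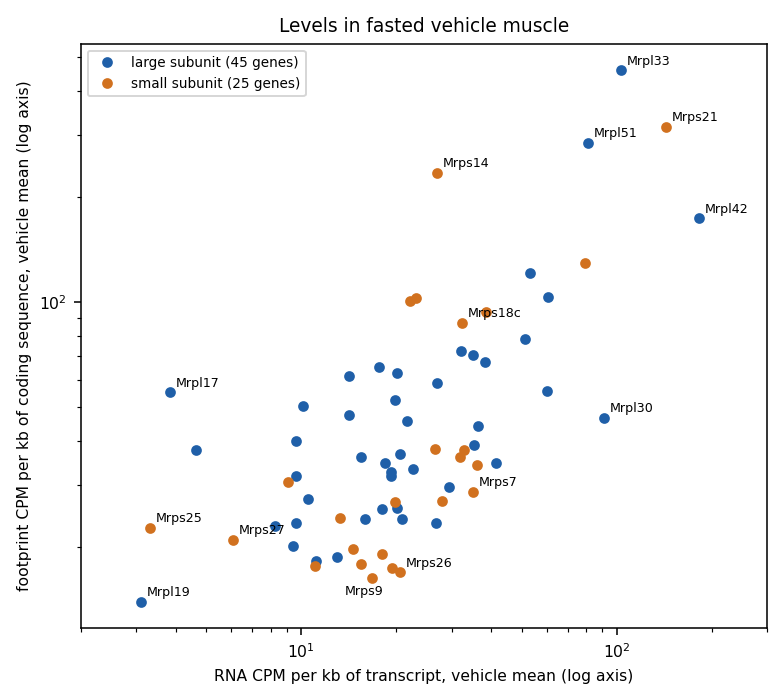
Vehicle footprint level in CPM per kb of coding sequence (y) against vehicle RNA level in CPM per kb of transcript (x), both on log axes, with 1 point per gene in colours for large and small subunit genes. The genes spread from 13.9 to 458 on the footprint axis, and both subunits cover most of that range.

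The ratio of footprints to RNA in vehicle libraries, from the model over both assays, spread widely over the members. It is relative to the average gene of the table, and at an adjusted p under 0.05 in edgeR's quasi-likelihood test 33 of 70 were higher than RNA and 13 lower (65.7% called in all, against 75.2% of all genes). Most genes of the table thus passed this test too. In the higher direction 47.1% of the mitochondrial ribosomal protein genes were called, against 38.2% of all genes, and in the lower direction 18.6%, against 37.0%. An unadjusted p under 0.05 was reached by 76.9% of all genes. The median log2 ratio was 0.22, with 45 of 70 genes positive, beside 0.02 and 51.0% over all genes and -1.27 over the 75 cytosolic ribosomal protein genes, of which 64 were called lower. By subunit, 21 of 45 large genes were called higher and 9 lower, with a median of 0.28, and 12 of 25 small genes higher and 4 lower, with a median of 0.19.

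Mrps27, which encodes a small subunit protein with pentatricopeptide repeats, a fold known from RNA-binding proteins, had the highest ratio. Its vehicle level was 13.1, 10.1 and 9.44 CPM in RNA libraries A1 to A3 and 10.8 and 12.6 in B1 and B2. In footprints it was 23.2, 26.7, 22.5, 26.4 and 31.4 CPM in the same order of names. Every footprint library lay above every RNA library, and the log2 ratio was 1.41 ± 0.12 (SE, adjusted p = 4.23e-10). Mrps18c, Mrpl52, Mrpl27 and Mrpl33 followed at 1.41 ± 0.13, 1.15 ± 0.10, 1.13 ± 0.10 and 1.103 ± 0.136. Mrpl27 and Mrpl33 have bacterial counterparts, and Mrpl52 belongs to the proteins found only in mitochondrial ribosomes.

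Mrpl30, the homologue of a bacterial large subunit protein, had the lowest ratio. Its RNA level in vehicle was 61.3, 58.5 and 55.3 CPM in set A and 73.6 and 66.1 in set B, against footprint levels of 17.2, 22.8 and 19.9 and of 24.1 and 27.8. Every footprint library lay below every RNA library, and the log2 ratio was -1.29 ± 0.13 (SE), a 0.409-fold level of footprints per RNA. Mrpl9, Mrps7, Mrps24 and Mrps26 came next at -1.001 ± 0.136, -0.95 ± 0.08, -0.89 ± 0.14 and -0.76 ± 0.10. Mrps7 and Mrps24 encode relatives of bacterial small subunit proteins that lie in the head of that subunit.

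The 3 small subunit symbols Mrps18a, Mrps18b and Mrps18c encode paralogs related to 1 bacterial protein, and each ribosome holds all of them at different positions. Their ratios in vehicle were -0.14 ± 0.11, 0.17 ± 0.11 and 1.41 ± 0.13 (SE), of which only the last passed the test over all libraries; that of Mrps18b was 0.33 in set A, where it passed, and -0.07 in set B. Vehicle RNA of Mrps18c was 16.3 ± 1.66 CPM and its footprints 37.3 ± 5.17 (SD, n = 5 each). Mrps18a had a higher RNA CPM, 28.3 ± 2.86, and a lower footprint CPM, 22.2 ± 3.16 (SD, n = 5 each). These CPM are not divided by length, and the transcript of Mrps18a has 864 bases against 502 for Mrps18c. The higher RNA CPM of Mrps18a therefore does not show that it had more transcripts. Differences between the paralogs themselves were not tested.

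The ratio was a property of genes that recurred in both sets of columns: set A and set B ratios had a Pearson r of 0.924 across the 70 genes, beside 0.94 over all genes. It showed little relation to coding length (r = -0.037) or to the coding share of the transcript (r = 0.178, beside 0.275 over 5941 genes). These correlations are descriptions across genes.

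Leucine left the RNA of the mitochondrial ribosomal protein genes without a call. Of the 70 genes, 0 passed an adjusted p of 0.05 in edgeR (background 0.0% of all genes), 0 in DESeq2 and 0 in limma-voom, and 1 had an unadjusted p under 0.05 (all genes 2.69%). The median log2 change, leucine minus vehicle, was 0.01 (large 0.02, small 0.00), with 40 of 70 genes above 0, beside a median of -0.00 and 49.4% of all genes. The 95% confidence intervals of the 70 changes lay between -0.45 and 0.56 on the log2 scale.

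The gene with the smallest RNA p was Mrps10, whose product has a bacterial small subunit homologue. Its RNA level was 9.42, 10.6, 10.2, 9.80 and 10.3 CPM in vehicle and 10.4 at the lowest, 11.3 at the median and 13.7 at the highest in leucine libraries. The groups overlapped: 4 of 6 leucine libraries lay above the highest vehicle library. The change was 0.20 ± 0.08 (SE, adjusted p = 0.999). The largest negative values were those of Mrps18c (-0.20 ± 0.10), Mrps21 (-0.17 ± 0.13) and Mrps26 (-0.16 ± 0.10), with Mrpl33 at -0.15 ± 0.10. On the positive side, Mrpl12 stood at 0.18 ± 0.17 and Mrpl50 at 0.15 ± 0.12. All had an adjusted p of 0.999.

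In footprints, 0 of the 70 genes were called by edgeR (background 0.76% of all genes, 0.694% higher and 0.0661% lower). At an unadjusted p under 0.05 there were 6 (8.57%), each with a positive change, which is below the 12.1% of all genes. DESeq2 called 1 of the 70, Mrpl30, beside 4.18% of all genes, and limma-voom called 0, beside 0.71%. The number of calls over all genes varied with the libraries and the scaling. With all libraries edgeR called 46 genes of the table, and 0 in 9 of the 11 fits that left out 1 footprint library. It called 98 without leucine library A3, 67 without leucine library B3, and 0 with upper-quartile scaling. The median change was 0.08, a 1.06-fold level, and 54 of 70 genes (77.1%) had a positive change, beside a median of -0.01 and 46.2% positive over all genes. Because genes in the same libraries move together, the share of positive signs has no error of its own here. The smallest adjusted p was 0.218. In 0 of 70 genes did all leucine libraries lie above all vehicle libraries (1.75% of all genes), and in 0 did all lie below (0.743%).

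The cytosolic ribosomal protein genes, measured in the same footprint libraries, had a median change of 0.68, with 75 of 75 positive and 27 called higher. Of those calls, 0 remained in 9 of the 11 fits without 1 library and with upper-quartile scaling. The median change stayed between 0.61 and 0.75 over the left-out libraries. Over the scalings, filters, tools and sets it ran from 0.54 to 0.81, and only the value of 0.68 is used as a bound below. There were 56 calls without leucine library A3 and 41 without leucine library B3. The individual intervals bound the mitochondrial genes from above: for 68 of 70, the upper end of the 95% confidence interval of the footprint change was under that median of 0.68. The exceptions were Mrpl30 and Mrps15, the former with the highest upper end at 0.73. All 70 point estimates were within 0.5 of 0. Standard errors of single genes ran from 0.05 to 0.18, so a shift of the size of the members' median could not be detected in most single genes at this depth and number of libraries.

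**Figure D2:**
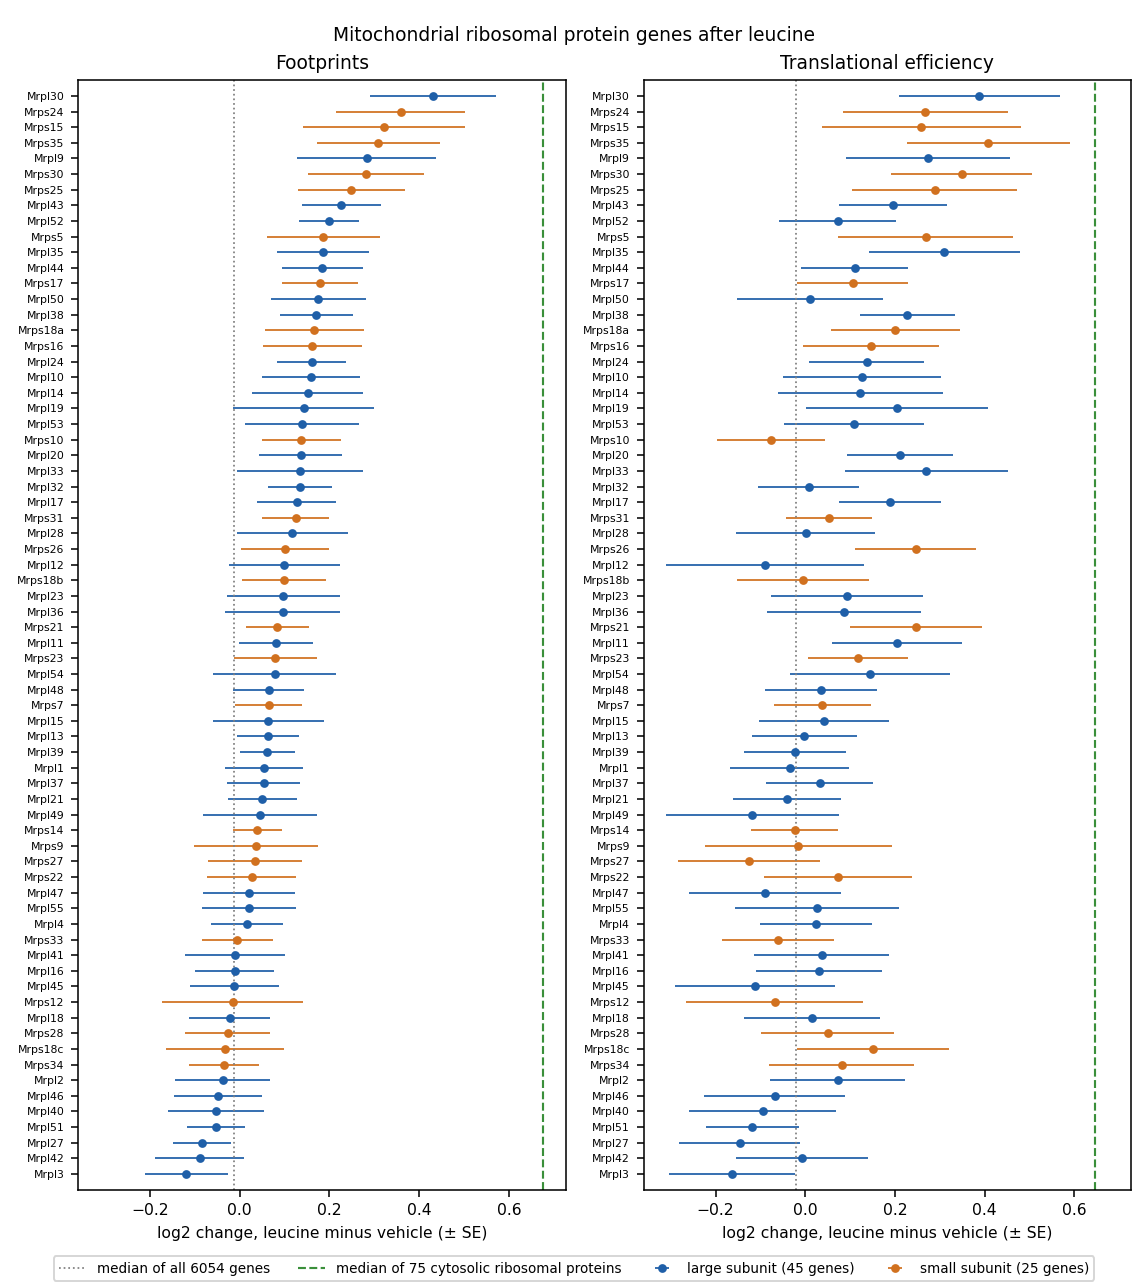
Log2 change after leucine of each mitochondrial ribosomal protein gene in footprints (left) and translational efficiency (right), with genes in the order of their footprint change and colours for the subunits; points are estimates and bars ± 1 SE. The dotted line is the median of all genes (-0.01 in footprints, -0.02 in efficiency) and the dashed line that of the cytosolic ribosomal protein genes (0.68 and 0.65), which lies above every estimate of the 70 genes.

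Mrpl30 had the smallest footprint p and the largest change. Its vehicle footprints were 17.2, 22.8 and 19.9 CPM in set A and 24.1 and 27.8 in set B. In leucine the lowest library had 24.8, the median was 29.3 and the highest library had 36.1. Of the 6 leucine libraries 3 lay above the highest vehicle library, so the groups overlapped. The log2 change was 0.43 ± 0.14 (SE, 95% interval 0.13 to 0.73, adjusted p = 0.218 in edgeR). DESeq2 gave 0.43 ± 0.14 with an adjusted p of 0.0401, and over the settings of edgeR and limma-voom the adjusted p ran from 0.0955 to 0.4995. The change was 0.47 in set A alone and 0.33 in set B alone.

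Mrpl52 had tighter libraries. Its vehicle footprints were 20.96, 22.7, 23.0, 19.98 and 20.3 CPM, and the leucine libraries ran from 22.9 through a median of 24.3 to 27.3. In leucine, 5 of 6 libraries were above the highest vehicle library, the most of any of the 70 genes. The change was 0.20 ± 0.07 (SE, adjusted p = 0.232).

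Mrps24 had vehicle footprints of 12.3, 17.2 and 14.7 CPM in set A and 18.5 and 23.1 in set B, with 17.8, 22.0 and 25.3 as the lowest, median and highest in leucine. Its vehicle libraries were lower in set A than in set B. The change was 0.42 in set A and 0.22 in set B, and 0.36 ± 0.14 over all (SE, adjusted p = 0.324). Mrpl43, a protein of mitochondrial ribosomes only, had 17.2, 20.3, 17.3, 14.2 and 18.8 CPM in vehicle and 18.7, 20.5 and 22.1 in leucine, a change of 0.23 ± 0.09 (SE, adjusted p = 0.310). The groups of both genes overlapped.

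Mrps15 and Mrps35 came next in size of change. Mrps35 had vehicle footprints of 15.7, 19.3, 15.1, 19.5 and 25.3 CPM against 18.1, 24.3 and 27.4 in leucine, a change of 0.31 ± 0.14 (SE, adjusted p = 0.383). Mrps15 had 15.8, 21.9, 16.1, 23.0 and 27.5 CPM against 18.5, 26.8 and 33.3, a change of 0.32 ± 0.18 (SE, adjusted p = 0.499). In both, vehicle libraries A1 and A3 were low and B2 was high. That order recurred in part of the genes. Among the 5 vehicle footprint libraries, A3 was the lowest in 25, A1 in 20 and B1 in 18 of the 70 genes. B2 was the highest in 31 and A2 in 14. In leucine, library A3 was the lowest in 29.

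The negative changes were small. Mrpl3, a large subunit protein whose gene is mutated in a human cardiomyopathy with respiratory chain deficiency, had vehicle footprints of 82.9, 80.4, 61.6, 63.9 and 78.8 CPM. Its leucine libraries ran from 61.8 through a median of 66.9 to 76.8, all within the span of the vehicle libraries, and the change was -0.12 ± 0.09 (SE, adjusted p = 0.635). Mrpl42 stood at -0.09 ± 0.10, with 0.09 in set A and -0.32 in set B, and Mrpl27 at -0.08 ± 0.07.

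**Figure D3:**
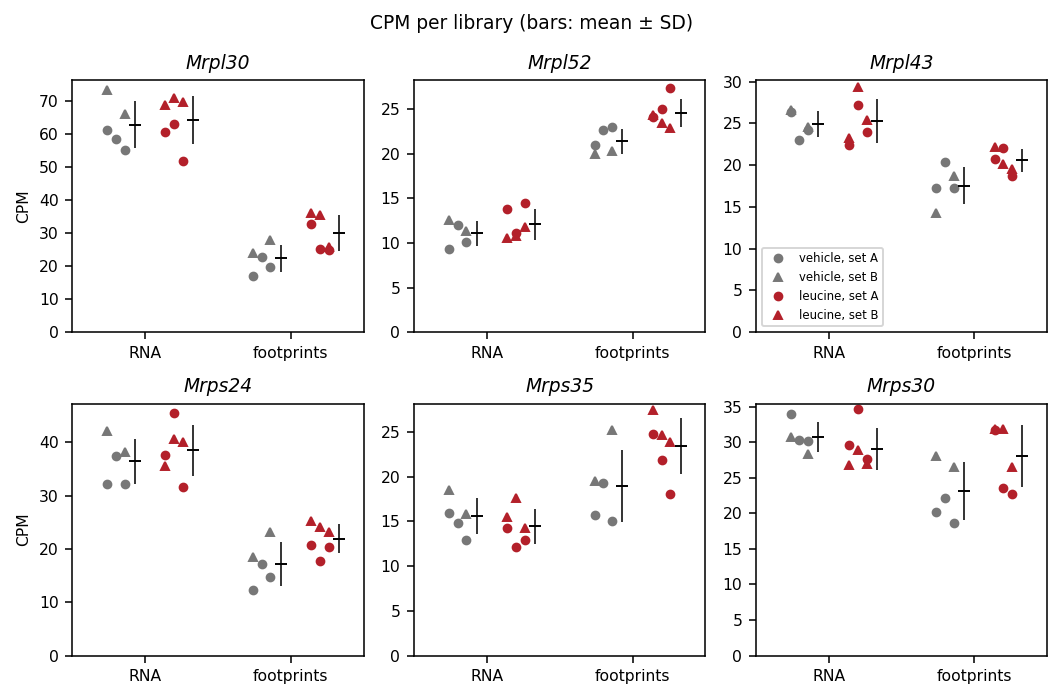
RNA and footprint CPM in every vehicle (grey) and leucine (red) library for Mrpl30, Mrpl52, Mrpl43, Mrps24, Mrps35 and Mrps30, with circles for set A, triangles for set B and bars for mean ± SD (n = 5 vehicle and 6 leucine). In Mrpl30, 3 of 6 leucine footprint libraries are above the highest vehicle library, in Mrpl52 5 of 6, and in each gene the groups overlap.

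Members were also taken for their known roles, whatever their values, and none was called. Mrpl12 and Mrpl10 form the stalk that recruits translation factors, and Mrpl12 is also known to bind mitochondrial RNA polymerase. Their footprint changes were 0.10 ± 0.12 and 0.16 ± 0.11 (SE). Mrpl45, which tethers the ribosome to the inner membrane near the exit tunnel, stood at -0.01 ± 0.10 and Mrpl37 at 0.05 ± 0.08. In the small subunit, Mrps12, which lies at the decoding centre, stood at -0.02 ± 0.16 and Mrps27 at 0.03 ± 0.10. Mrpl12 and Mrps27 had positive changes in set A and negative ones in set B (-0.06 and -0.17), and so did Mrpl45 (0.09 and -0.15).

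Among genes mutated in human mitochondrial disease, Mrpl44 stood at 0.18 ± 0.09, Mrps16 at 0.16 ± 0.11 and Mrps22 at 0.03 ± 0.10. The Mrps18a, Mrps18b and Mrps18c changes were 0.17 ± 0.11, 0.10 ± 0.09 and -0.03 ± 0.13, with adjusted p-values of 0.573, 0.714 and 0.958. Mrps14, a homologue of a bacterial small subunit protein, was the most even gene of high level, with vehicle footprints of 89.8 ± 2.30 CPM and leucine footprints of 92.2 ± 4.02 (SD, n = 5 and 6). Its change of 0.04 ± 0.05 (SE) had the smallest error of the 70.

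The median footprint change was 0.08 over the 45 large genes, of which 34 were positive, and 0.10 over the 25 small genes, of which 20 were positive, a difference of -0.02. A score per library, the mean over genes of log2 CPM centred on all libraries of the assay, averaged -0.044 ± 0.089 in vehicle and 0.037 ± 0.067 in leucine for large genes (SD, n = 5 and 6). For small genes it averaged -0.065 ± 0.129 and 0.054 ± 0.067. The groups overlapped for both subunits: large scores ran from -0.126 to 0.078 in vehicle and from -0.077 to 0.097 in leucine. Small scores ran from -0.196 to 0.114 and from -0.066 to 0.126. For the cytosolic ribosomal protein genes the scores did not overlap, with -0.202 as the highest in vehicle and -0.016 as the lowest in leucine.

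The large score minus the small score was 0.021 ± 0.052 in vehicle and -0.017 ± 0.042 in leucine (SD, n = 5 and 6). It also differed between the sets of columns. In set A it averaged 0.057 over 3 vehicle and 0.015 over 3 leucine libraries, with overlapping ranges of 0.035 to 0.069 and -0.010 to 0.057. In set B it averaged -0.034 over 2 vehicle and -0.049 over 3 leucine libraries, and the leucine libraries (-0.055 to -0.045) lay below the vehicle libraries (-0.036 to -0.032). The leucine mean was thus lower than the vehicle mean in both sets, by amounts that were not tested. Structures of the mammalian mitochondrial ribosome place the products of Mrps18a and Mrps30 in the large subunit despite their symbols. With these 2 genes counted as large, a choice made after the data were seen, the footprint medians were 0.08 over 47 large and 0.08 over 23 small genes. The same count moved the vehicle ratio difference between subunits from 0.09 to -0.04 and the RNA difference from 0.01 to -0.00, so both differences changed sign.

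**Figure D4:**
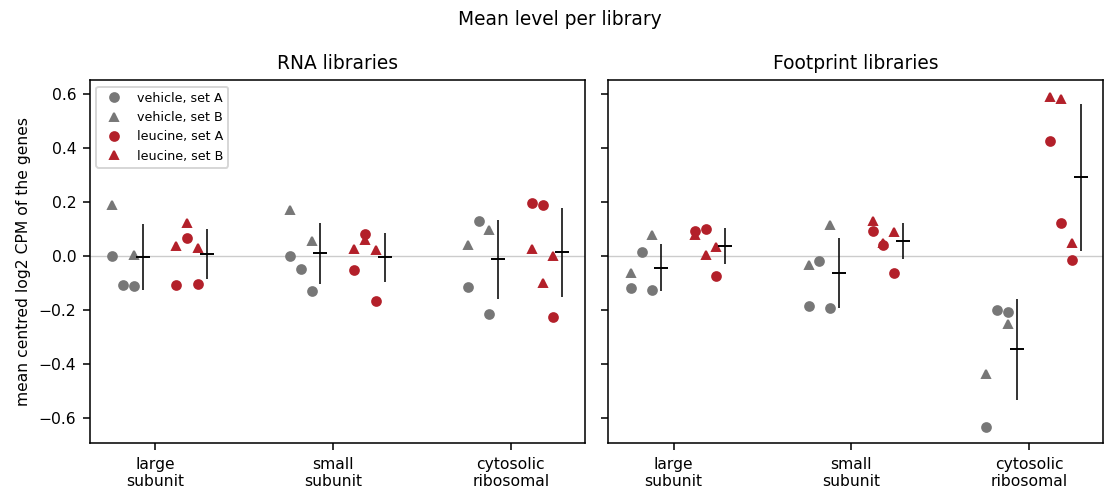
Mean centred log2 CPM per library of large subunit, small subunit and cytosolic ribosomal protein genes in RNA (left) and footprints (right), with vehicle in grey, leucine in red, circles for set A, triangles for set B and bars for mean ± SD (n = 5 and 6). In footprints the vehicle and leucine scores overlap for both mitochondrial subunits and are separate for the cytosolic genes, whose highest vehicle score is -0.202 and lowest leucine score -0.016.

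Translational efficiency, the change in footprints relative to the change in RNA, was tested as the interaction of treatment and assay over all 22 libraries. Of the 70 genes 0 were called in edgeR (background 0.0%), 0 in DESeq2 (0.942% of all genes) and 0 in limma-voom (0.0%), and 4 had an unadjusted p under 0.05 (5.71%, beside 7.09% of all genes). The median was 0.06, with 49 of 70 genes positive, beside -0.02 and 44.9% over all genes. It was 0.03 over large and 0.11 over small genes, of which 31 of 45 and 18 of 25 were positive. With Mrps18a and Mrps30 counted as large, these medians were 0.04 and 0.08. The cytosolic ribosomal protein genes had a median of 0.65 with 74 of 75 positive and 0 called. For 60 of 70 mitochondrial genes the upper end of the 95% interval was under 0.65.

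The 4 genes were Mrps35 (0.41 ± 0.18 SE, adjusted p = 0.675), Mrps30 (0.35 ± 0.16, 0.686), Mrpl30 (0.39 ± 0.18, 0.688) and Mrpl38 (0.23 ± 0.11, 0.688). For Mrps30, vehicle footprints were 20.2, 22.2 and 18.7 CPM in set A and 28.1 and 26.5 in set B, against 22.7, 29.2 and 31.9 in leucine, while its RNA change was -0.08 ± 0.08. The RNA change of Mrpl30 was 0.03 ± 0.10 and that of Mrps35 -0.11 ± 0.11. Mrpl35 stood at 0.31 ± 0.17 (adjusted p = 0.768). The lowest efficiency changes were those of Mrpl3 (-0.16 ± 0.14), Mrpl27 (-0.15 ± 0.13) and Mrps27 (-0.13 ± 0.16).

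The sets were also fitted separately. The median footprint change of the 70 genes was 0.11 in set A with 60 positive and 0.05 in set B with 43 positive. It was 0.10 and 0.04 for large, and 0.15 and 0.06 for small subunit genes. In RNA the median was 0.03 in set A and -0.05 in set B, and in efficiency 0.09 in each. Across genes, the footprint changes of the sets had a Pearson r of 0.361 (Spearman 0.318), beside 0.447 over all genes: 38 genes were positive in both sets and 5 negative in both. A model with a set by treatment term called 0 genes of the table in RNA or footprints in edgeR. At an unadjusted p under 0.05, 2 and 4 of the 70 differed between sets, and 110 and 176 of the 6054 genes. The share was higher among the 70 in both assays, a difference that was not tested. No other tool was run on that term.

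**Figure D5:**
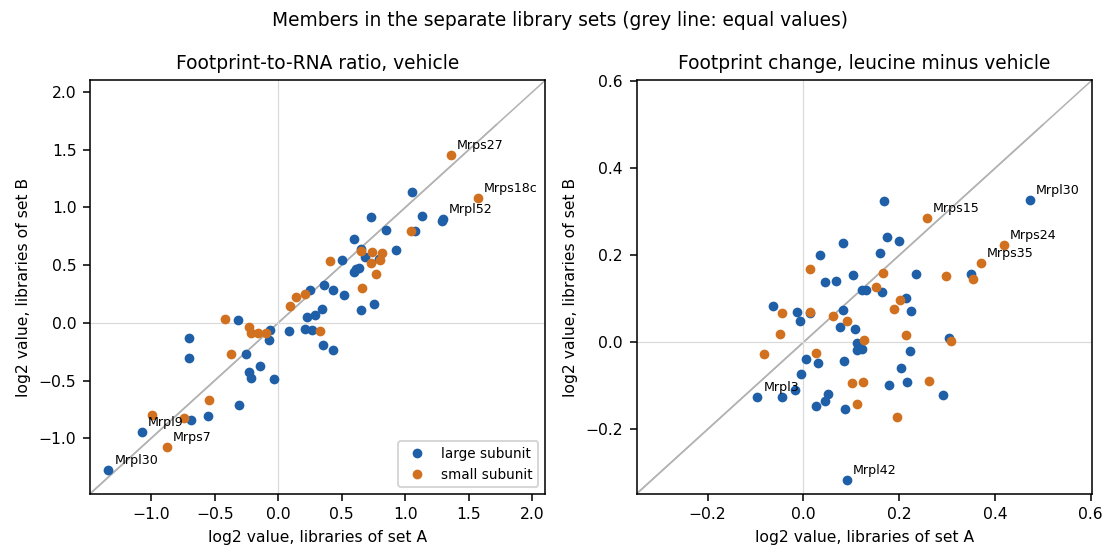
Log2 values of each mitochondrial ribosomal protein gene in set A (x) and set B (y), for the footprint-to-RNA ratio in vehicle (left) and the footprint change after leucine (right), with colours for the subunits and a grey line for equal values. The ratios lie along the line (r = 0.924), while the changes scatter more (r = 0.361), with 38 of 70 genes above 0 in both sets and 5 below 0 in both.

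In 5 other lists of genes for mitochondrial translation and genome maintenance, 0 genes were called in footprints, beside 0.76% of all genes. With so low a share over all genes, 0 calls in short lists sets them apart in no way. The 7 proteins of the mitochondrial ribosome under other symbols had a median footprint change of 0.04, with 5 positive. Among them Ict1, a peptidyl-tRNA hydrolase built into the large subunit, stood at 0.21 ± 0.07 (SE, adjusted p = 0.238) and Gadd45gip1 at 0.23 ± 0.10 (0.357). The 13 translation factors and related proteins had a median of 0.06, with 10 positive. Oxa1l, which inserts newly made proteins into the inner membrane, stood at 0.30 ± 0.12 (0.305) and Taco1, a translational activator of cytochrome c oxidase subunit I, at -0.20 ± 0.09 (0.416).

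Assembly and rRNA-modifying factors had a median footprint change of -0.06, with 3 of 13 positive. Mterfd1, of the mitochondrial transcription termination factor family, stood at -0.17 ± 0.08 (SE, adjusted p = 0.417) and the assembly GTPase Gtpbp10 at -0.17 ± 0.10 (0.513). The 10 mitochondrial aminoacyl-tRNA synthetases had a median of 0.07 with 7 positive. Of these Iars2 stood at 0.11 ± 0.07 (0.553) and Aars2 at 0.17 ± 0.13 (0.613). The 7 genes of mitochondrial transcription and DNA maintenance had a median of -0.02, with Polg at -0.16 ± 0.11 (0.594) and Polrmt at 0.12 ± 0.09 (0.639). Differences between the lists were not tested.

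Counts of some genes are uncertain, since the sources used here do not say how strand and overlapping genes were handled in counting. In GENCODE M21, 30 of the 70 genes have exons that overlap another gene, among them Mrpl43 with Twnk, Mrpl9 with Oaz3, Mrpl27 with Eme1 and Mrps24 with Urgcp, the last on the same strand. Mrpl30, Mrpl52, Mrps35 and Mrps15 have none. Annotated pseudogenes carry the name of 2 members, Mrpl23 and Mrpl48; copies under other names were not looked for.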

How the data were processed

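The authors deposited whole-number counts per gene for 22 libraries, with transcript identifiers and a length column in bases that was not used for the tests. Bowtie, edgeR and build mm9 are named in the submitters' processing notes; the sources used here give neither versions nor the counting rule. No count is below 129, so the table may hold abundant genes only. Log2 fold changes and p-values of the authors' deposited tables are described only where named.

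The fits used edgeR 4.0.16 under R 4.3.3 (TMM, filterByExpr, robust quasi-likelihood), with Benjamini-Hochberg adjustment over all 6054 genes at 0.05. Leucine was compared with vehicle in RNA and in footprints, and the interaction and the vehicle footprint-to-RNA ratio came from 1 model over both assays. CPM use TMM-adjusted library sizes within an assay, so changes are relative to other genes and a change of total footprints cannot be seen. Standard errors are the log2 change divided by the square root of F. The pipeline was tested on simulated data. Alternatives were other scalings, filters, DESeq2 1.42.0, limma-voom (limma 3.58.1), the sets and leaving out each library.

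Genes were named by smallest p, largest change, highest and lowest ratio or level, and known role; from other lists, the 2 with the smallest footprint p. The members and lists were chosen with earlier results of these data known. Coding lengths, exon overlaps and starts are from GENCODE M21 and RefSeq on GRCm38, matched by symbol or transcript, and no coordinates were moved between builds. Transcript lengths are those the authors deposited with their edgeR results, so the coding share of a transcript joins lengths from different sources.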

Additional observations from a re-analysis of the deposited data

Results flagged for a closer look

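Of 70 groups of libraries examined for a value that stands apart (Dixon's criterion, which flags a small share of groups by chance), 2 did. The footprint level of Mrpl42 in leucine library A2 was 79.4 CPM, while the other leucine libraries lay between 65.1 and 70.1 CPM, a gap of 0.648 of the group's range. The vehicle libraries of Mrpl42 ran from 58.2 to 87.8 CPM, so the value lay within the vehicle range. The footprint level of Mrps22 in leucine library B3 was 22.98 CPM, while the other leucine libraries lay between 17.6 and 19.3 CPM, a gap of 0.693 of the range. Its vehicle libraries ran from 15.9 to 22.5 CPM, and without library B3 its change was -0.03.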

How the results depend on the processing

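Calls among the 70 genes stayed at 0 in RNA and efficiency, and in footprints DESeq2's test alone called 1, Mrpl30 (4.18% of all genes). In the vehicle ratio 38 to 53 were called over the settings. Median changes moved by less than the spread between libraries, a rule that a change of sign could pass. Over the settings the median RNA change ran from -0.0538 to 0.0271 and the large minus small RNA difference from -0.0056 to 0.032. In footprints that difference ran from -0.0467 to 0.0062 with 1 library left out. In efficiency it ran from -0.0912 to -0.0444 over the settings and from -0.1003 to -0.0305 with 1 library left out, and was not tested. Median footprint and efficiency changes stayed positive. Over all genes, footprint calls numbered 46 with all libraries, 253 with DESeq2, 0 with upper-quartile factors, 0 with set A only, 1 with set B only, and 0 to 98 with 1 library left out. Calls among cytosolic ribosomal protein genes, 27 with all libraries, numbered 67, 0, 0 and 0 in the same settings and 0 to 56 with 1 library left out. The alternatives for both counts and for genes of the other lists were added after the data were seen.

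Of 1393 values of single named genes, 1360 held, 31 changed sign and 2 newly passed the threshold (Mrpl30 in footprints with DESeq2, and the vehicle ratio of Mrps18b with set A only). A value held if it kept its sign and its side of the threshold. None of these genes was called in RNA, footprints or efficiency with all libraries, so holding there meant the same sign and still no call. The fit without a filter equalled the main fit, because the filter removed no gene. The share that held is therefore not a measure of robustness. With set A only, Mrpl33 in RNA was 0.0445, and in footprints Mrpl42 was 0.092, Mrps18c 0.0257 and Mrpl45 0.0871. With set B only, footprint changes were -0.0587 for Mrpl12, -0.089 for Mrps18b, -0.0945 for Mrps22 and -0.1716 for Mrps27, and the ratio of Mrps18b was -0.0674. Mrps18c was 0.0019 with set as covariate and Mrps22 -0.0012 with upper-quartile factors. Leaving out 1 library, the sign also changed for Mrps12 (-0.1002 to 0.0727), Mrps18c (-0.123 to 0.0379), Mrps22 (-0.0293 to 0.0949), Mrpl45 (-0.0598 to 0.0445) and Mrps27 (-0.0205 to 0.109). The cause was not tested.

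Leaving out each library gave median changes of 0.06 to 0.11 in footprints, -0.02 to 0.06 in RNA and 0.01 to 0.09 in efficiency, with 0 of the 70 called, and 44 to 50 called in the vehicle ratio. No paired analysis was possible because the columns of the count table carry no replicate number. Changes of the size of the footprint median are within the standard errors of most single genes.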

Other observations

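The surroundings of the gene starts were described as well, and no difference in them was tested. In GENCODE M21, 17 of the 70 (24.3%) have a protein-coding gene that starts on the opposite strand within 1000 bases upstream, beside 595 of 5665 genes of the count table (10.5%). Such neighbours are Sars2 beside Mrps12, Ptcd2 beside Mrps27, Mitd1 beside Mrpl30 and Fau beside Mrpl49. The motif CCGGAA, searched on both strands from 250 bases before to 50 bases after the start and chosen after the data were seen, was in 36 of 61 members (59.0%), 29 of 56 cytosolic ribosomal protein genes (51.8%) and 1510 of 4534 genes (33.3%). Large subunit genes held it in 21 of 39 and small subunit genes in 15 of 22 cases. In Mrpl30 it lies 18 bases before the start. A match is a description of letters.

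The authors' deposited footprint table lists 70 mitochondrial ribosomal protein genes, of which 65 are in the count table. In the authors' deposited table the smallest FDR was 0.277, for Mrpl30 with a log2 fold change of 0.45, and 59 of the 70 had a positive value with a median of 0.12. The share and median over all genes of the authors' table are not given here, so these values do not show a shift of the members. The authors' deposited RNA table lists 71, with a smallest FDR of 1.0 and a median log2 fold change of 0.03.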
